A study of Mus musculus with 40 samples.

Results

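Sarcomere and natriuretic peptide genes whose transcripts are used as indicators of cardiac hypertrophy were described in the hearts of adult male mice. The list held 10 genes, Acta1, Actc1, Myh6, Myh7, Nppa, Nppb, Tnnt1, Tnnt2, Tnni1 and Tnni3. Every probe annotated to them was taken, whatever its value. This gave 11 probes for 9 of the 10 genes, out of 16593 genes with a probe on the array. Actc1 and Myh6 had 2 probes each, numbered here from the brighter, and Tnnt2 was not analysed here because the probe annotation named no probe for it. Myl7, the regulatory myosin light chain of the atria, was read in the same hearts as a check for atrial tissue.

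Total RNA of 40 hearts, 1 per male C57BL/6J mouse, was hybridised to Illumina MouseRef-8 beadchips. The mice fell into 4 groups of 10, named by the diet of the dam and then that of the offspring: HF_HF (HF-fed offspring of HF-fed dams), HF_LF (LF-fed offspring of HF-fed dams), LF_HF (HF-fed offspring of LF-fed dams) and LF_LF (LF-fed offspring of LF-fed dams). HF stands for a diet high in fat and low in carbohydrate, LF for one low in fat and high in carbohydrate, and coconut oil was the main fat of both. Dams ate their diet from 3 weeks of age until the pups were weaned on day 21, the males of a cage were then divided between the diets, and all were killed at 9 weeks of age after a fast of 4 hours. All animals were wild type and untreated apart from the diets, and littermates shared a dam, so that single hearts were not fully independent. HF_HF over LF_HF and HF_LF over LF_LF ask what the diet of the dam changed, while HF_HF over HF_LF and LF_HF over LF_LF ask what the diet after weaning changed.

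Cardiac muscle contracts when myosin heads pull on actin filaments, and the troponins on those filaments switch the pull on with calcium. The fetal rodent heart uses a set of actin, myosin and troponin isoforms that the adult ventricle largely replaces, and an overloaded adult heart turns part of the fetal set on again. The natriuretic peptides are hormones that heart muscle releases when it is stretched. They lower blood volume and pressure, the atria store the most Nppa product, and the ventricle adds both peptides under load.

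The 250 bases upstream of the RefSeq start sites of Acta1, Nppb, Nppa and Tnnt1 are shown because these are the members on which the results turn (build GRCm38.p6, 5' to 3' on the strand of the gene). Capitals mark every match, on either strand, to 6 motifs: the CArG box bound by serum response factor, the MEF2 box, CATTCC bound by TEAD factors, GATAA bound by GATA factors, TATAAA, and TNAAGTG bound by Nkx2-5.
Acta1, chr8:123894776-123895025, minus strand: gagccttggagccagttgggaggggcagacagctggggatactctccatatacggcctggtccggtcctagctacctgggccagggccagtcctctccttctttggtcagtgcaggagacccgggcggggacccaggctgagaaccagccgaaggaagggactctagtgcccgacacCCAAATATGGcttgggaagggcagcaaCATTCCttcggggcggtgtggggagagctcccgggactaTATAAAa
Nppb, chr4:147985650-147985899, plus strand: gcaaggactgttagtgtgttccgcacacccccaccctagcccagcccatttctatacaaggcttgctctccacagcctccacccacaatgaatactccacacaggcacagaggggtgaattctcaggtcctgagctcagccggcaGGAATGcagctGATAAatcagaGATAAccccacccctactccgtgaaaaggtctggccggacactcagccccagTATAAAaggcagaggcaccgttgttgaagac
Nppa, chr4:148000472-148000721, plus strand: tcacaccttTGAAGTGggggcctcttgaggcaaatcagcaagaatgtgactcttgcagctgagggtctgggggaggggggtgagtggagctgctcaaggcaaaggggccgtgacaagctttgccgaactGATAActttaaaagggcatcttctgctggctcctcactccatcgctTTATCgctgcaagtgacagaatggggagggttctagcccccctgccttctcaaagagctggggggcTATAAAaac
Tnnt1, chr7:4515976-4516225, minus strand: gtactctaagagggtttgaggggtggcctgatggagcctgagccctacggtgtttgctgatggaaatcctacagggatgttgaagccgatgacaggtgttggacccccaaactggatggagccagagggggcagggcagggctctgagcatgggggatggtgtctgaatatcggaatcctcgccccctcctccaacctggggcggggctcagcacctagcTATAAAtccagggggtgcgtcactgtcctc

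Acta1 held 1 CArG box, from base 73 to base 64 before the start, and 1 CATTCC. Among all 32851 promoter windows of that length, 1.47% held a CArG box. Actc1 held one too, from base 47 to base 38 before its start. Nppb held 1 CATTCC and 2 GATAA, which 12.6% and 22.6% of all windows also held. Nppa held 2 GATAA and 1 TNAAGTG (10.1% of windows). Tnnt1 held only TATAAA, found in 12.4% of windows, and the MEF2 box, found in 0.508%, lay in none of the member windows. A match of letters is a description of the sequence and not a binding site. Several members are neighbours in the genome. The starts of Nppa and Nppb lay 14.8 kb apart on chromosome 4, those of Tnnt1 and Tnni3 lay 6.55 kb apart on chromosome 7, and those of Myh6 and Myh7 lay 27.9 kb apart on chromosome 14.

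Probe values are fluorescence intensities, quantile-normalised over the 40 hearts by the authors, with a highest value of 31454.1 and an array median near 79.3. Dim probes were left out: a probe was tested if 20 or more of the 40 arrays gave it a value over their own median. This held for 12645 probes (8749 genes), 10 of the 11 member probes among them, and p-values were adjusted over all tested probes with limma. Tnni1, the slow skeletal troponin I of the fetal heart, was not tested: its probe exceeded the median on 5 arrays and lay between 59.1 and 82.2. Cardiomyocyte markers were bright in all hearts, with sums over 12 genes between 205060 and 233750. Single hearts also carried transcripts of other tissues. Of the highest sums, animal 123 (HF_HF) had a summed fast skeletal muscle signal of 34265 against a group median of 7336, animal 101 (LF_LF) a summed liver signal of 50104 against 1393, and animal 13 (LF_LF) a summed exocrine pancreas signal of 94141 against 598.

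Tnnt1 was the member that changed most clearly, and it fell with the post-weaning HF diet. Tnnt1 encodes the slow skeletal troponin T, which the embryonic heart also expresses. Its intensity ran from 238.9 over a median of 286.9 to 402.1 in HF_HF hearts, against 320.6, 401.0 and 484.6 in HF_LF hearts. In LF_HF hearts it ran from 248 over 295 to 327.4, against 299.4, 418.9 and 507.9 in LF_LF hearts. Within each pair the ranges overlapped at 1 end: 11 of the 20 HF-fed hearts lay below every LF-fed heart, and 12 of the 20 LF-fed hearts lay above every HF-fed heart. The log2 change was -0.47 in HF_HF over HF_LF (SE 0.089, 95% interval -0.66 to -0.29, limma adjusted p = 0.008675). In LF_HF over LF_LF it was -0.50 (SE 0.077, 95% interval -0.66 to -0.34, limma adjusted p = 0.001995). In HF_HF 9 of 10 hearts lay below the median of HF_LF, and in LF_HF 10 of 10 lay below that of LF_LF. Hearts are counted in this way, against the median of the other group, throughout. As heart tissue was measured without separating its cells, fewer cells that express a gene and less RNA per cell cannot be told apart.

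In the pairwise comparisons of post-weaning diet, Tnnt1 was the only member called. The call rate over all probes was low. In HF_HF over HF_LF, 0.862% of the 12645 probes were called, 0.482% higher and 0.38% lower, and 1 of 10 member probes was called, lower. In LF_HF over LF_LF, 2.72% were called, 1.29% higher and 1.43% lower, and again 1 of 10 member probes was called, lower. Tnnt1 stood at rank 35 and rank 10 by p among all probes.

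**Figure D1:**
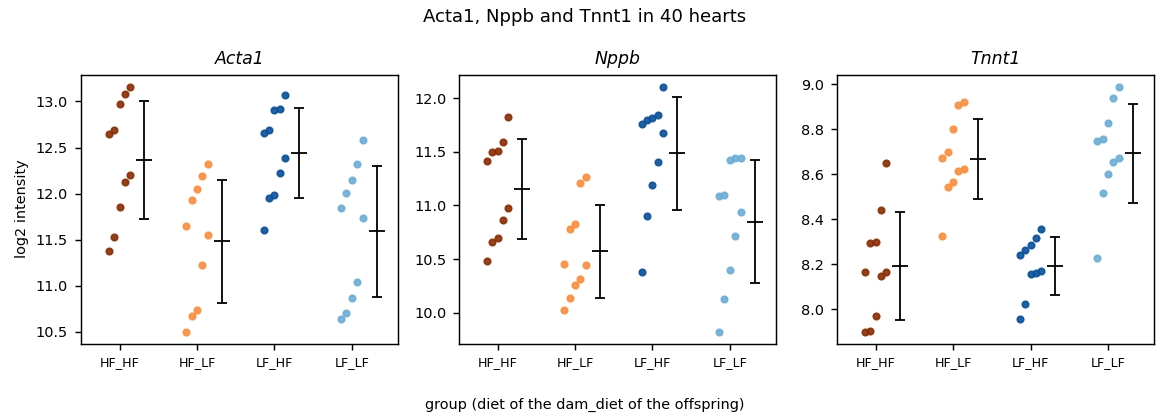
Log2 intensity (vertical axis) of Acta1, Nppb and Tnnt1 in each of the 10 hearts of HF_HF, HF_LF, LF_HF and LF_LF (horizontal axis), 1 point per heart, with the group mean and SD as the black bar. Both HF-fed groups sit higher than their LF-fed counterparts for Acta1 and Nppb and lower for Tnnt1, where 12 LF-fed hearts lie above every HF-fed heart.

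The fall of Tnnt1 was also seen between males of the same cage, which need not share a dam. In 5 cages hearts of both diets were measured, and in all 5 each HF-fed heart had less Tnnt1 than each LF-fed heart of the same cage. In cage 10 of the HF-fed dams the HF-fed heart stood at 238.9, against 320.6 and 394.7 in the LF-fed hearts. The log2 difference between diets in the 5 cages ran from -0.57 to -0.33. A fit on the mixed cages alone, with cage as a block, gave -0.49 in offspring of HF-fed dams (limma adjusted p = 0.1273) and -0.46 in offspring of LF-fed dams (limma adjusted p = 0.05055), so that neither passed on these fewer arrays.

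No change of Tnnt1 with the diet of the dam was called. The log2 change was 0.00 in HF_HF over LF_HF (95% interval -0.17 to 0.17) and -0.03 in HF_LF over LF_LF (95% interval -0.20 to 0.15), and the difference between both post-weaning effects was 0.03 (95% interval -0.22 to 0.27). Averaged over the diets of the dam, the post-weaning effect was -0.49 (SE 0.060, limma adjusted p = 6.303e-07). The dim probes separated the arrays into 2 sets of 25 and 15 with no labelled cause, each of which held all groups. The averaged change of Tnnt1 was -0.44 within the larger set and -0.54 within the smaller one (limma adjusted p = 0.001122 and 0.04921). Within each set alone, with as few as 3 hearts in a group, the pairwise changes of Tnnt1 lay between -0.74 and -0.34 and did not pass the test.

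**Figure D2:**
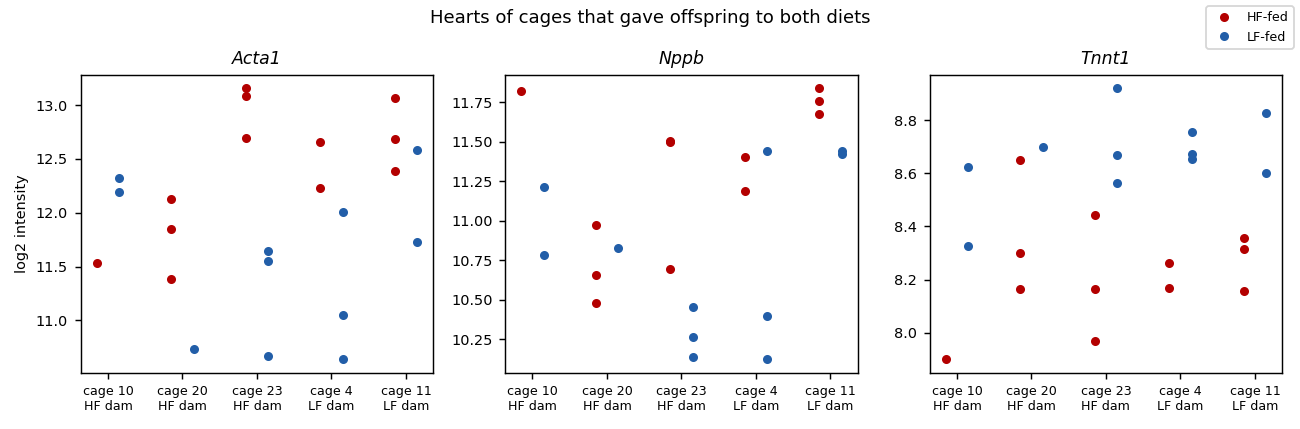
Log2 intensity of Acta1, Nppb and Tnnt1 (vertical axis) in the 5 cages with measured hearts of both diets (horizontal axis, with the diet of the dam), HF-fed in red left of LF-fed in blue. For Tnnt1 all HF-fed hearts of a cage lie below all LF-fed hearts of it, with cage differences from -0.57 to -0.33.

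Acta1 was higher with the post-weaning HF diet. It encodes the skeletal muscle alpha-actin, an isoform of the fetal heart that the adult rodent ventricle takes up again under pressure load. Its intensity ran from 2666 over a median of 5551 to 9147 in HF_HF hearts, against 1453, 3106 and 5112 in HF_LF hearts. In LF_HF hearts it ran from 3125 over 5912 to 8568, against 1595, 3536 and 6140 in LF_LF hearts. The groups overlapped, but 10 of the 20 HF-fed hearts lay above every LF-fed heart and 8 of the 20 LF-fed hearts lay below every HF-fed heart.

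The log2 change of Acta1 was 0.88 in HF_HF over HF_LF (SE 0.26, 95% interval 0.34 to 1.43, 8 of 10 hearts higher, limma adjusted p = 0.1549). It was 0.85 in LF_HF over LF_LF (SE 0.25, 95% interval 0.33 to 1.37, 9 of 10 hearts higher, limma adjusted p = 0.065). Neither pairwise change passed over all probes. Averaged over the diets of the dam on all 40 arrays, the change was 0.87 (SE 0.19, 1.82-fold, limma adjusted p = 0.00295) and passed, as it did in the larger set of arrays (0.86, limma adjusted p = 0.02592) but not in the smaller one (0.93, limma adjusted p = 0.5726). The pairwise change in LF_HF over LF_LF passed where animal 23 of LF_HF or animal 211 of LF_LF was left out (0.94 and 0.96, limma adjusted p = 0.0429 and 0.0277). Animal 23 had the lowest Acta1 of LF_HF and animal 211 the highest of LF_LF, so that leaving out either widens the difference. With any other single animal left out this pairwise change did not pass. In 4 of the 5 mixed cages mean log2 Acta1 was higher in the HF-fed hearts. The hearts of both diets overlapped in cage 11, from 5372 to 8568 in HF-fed and from 3404 to 6140 in LF-fed hearts. In cage 10 Acta1 was lower, with 2968 in the HF-fed heart against 4674 and 5112. The fit on the mixed cages with cage as a block called Acta1 in neither comparison.

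Animal 123, the HF_HF heart with fast skeletal muscle transcripts, bears on Acta1 directly, since skeletal muscle is rich in this actin. Without it the change was 0.80 in HF_HF over HF_LF and 0.83 averaged over the diets of the dam (SE 0.19, limma adjusted p = 0.005451). The diet of the dam gave log2 changes of -0.08 in HF_HF over LF_HF (95% interval -0.55 to 0.40) and -0.11 in HF_LF over LF_LF (95% interval -0.69 to 0.47).

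Nppb, which encodes the B-type natriuretic peptide, was also higher with the post-weaning HF diet. Its intensity ran from 1431 over a median of 2373 to 3625 in HF_HF hearts, against 1046, 1398 and 2462 in HF_LF hearts. In LF_HF hearts it ran from 1333 over 3372 to 4405, against 907.4, 2067 and 2788 in LF_LF hearts. Across the diets 10 of the 20 HF-fed hearts lay above every LF-fed heart, and 6 of the 20 LF-fed hearts lay below every HF-fed heart. The log2 change was 0.58 in HF_HF over HF_LF (SE 0.18, 10 of 10 hearts higher, limma adjusted p = 0.2067) and 0.64 in LF_HF over LF_LF (SE 0.22, 8 of 10 hearts higher, limma adjusted p = 0.1113). Averaged over the diets of the dam it was 0.61 (SE 0.15, 1.52-fold, limma adjusted p = 0.008736) and passed. Within the larger set of arrays it was 0.61 (limma adjusted p = 0.02045) and within the smaller one 0.63 (limma adjusted p = 0.6222). Without animal 23 of LF_HF, the lowest Nppb of its group, the change in LF_HF over LF_LF was 0.76 (limma adjusted p = 0.0464). Leaving out that heart widens the difference, and with any other single animal left out the pairwise change did not pass. Mean log2 Nppb was higher in the HF-fed hearts in 4 of the 5 mixed cages, while cage 20 had a log2 difference of -0.12. In cage 4 the hearts of both diets overlapped, from 2337 to 2711 in HF-fed and from 1117 to 2788 in LF-fed hearts. The fit on the mixed cages with cage as a block called Nppb in neither comparison.

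For the diet of the dam, the changes of Nppb were negative and did not pass the test. The log2 change was -0.34 in HF_HF over LF_HF (95% interval -0.75 to 0.08, 9 of 10 hearts lower) and -0.28 in HF_LF over LF_LF (95% interval -0.70 to 0.15, 8 of 10 hearts lower). Averaged over the diets of the offspring it was -0.31 (SE 0.15, limma adjusted p = 0.5049). LF_HF hearts thus had the highest median Nppb and HF_LF hearts the lowest.

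Over the post-weaning diet averaged across dams, 3 of 10 member probes were called, with Acta1 and Nppb higher and Tnnt1 lower. Of all probes 7.49% were called, 3.53% higher and 3.96% lower. The median change of the 10 member probes was -0.02 and that of all tested probes 0.00, so that the members did not share a direction.

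**Figure D3:**
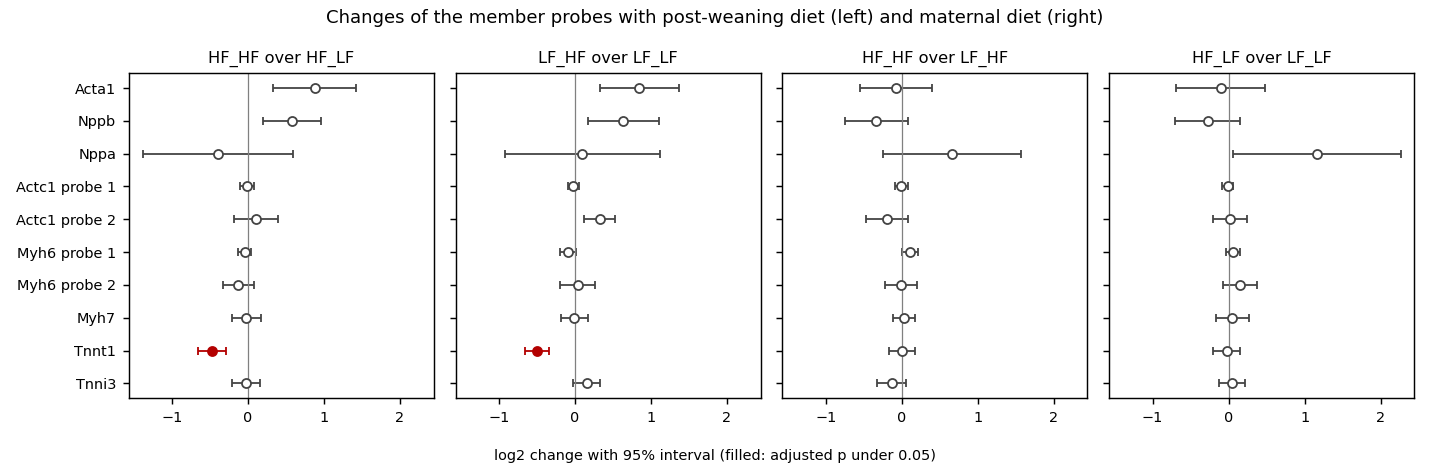
Log2 change (horizontal axis, point with 95% interval) of the 10 tested member probes (vertical axis) in HF_HF over HF_LF, LF_HF over LF_LF, HF_HF over LF_HF and HF_LF over LF_LF, with filled points for an adjusted p under 0.05. Only Tnnt1 is filled, at -0.47 and -0.50, Acta1 and Nppb lie right of 0 in both post-weaning comparisons, and Nppa has the widest intervals.

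Acta1 and Nppb also moved together from heart to heart. Over the deviations of the 40 hearts from their group means, Pearson's r was 0.629 (permutation p = 1e-05, the smallest that the resampling can give) and Spearman's rho 0.589 (permutation p = 9e-05). After adjustment over the 45 pairs of member probes the p-values were 9e-05 and 0.00081. The permutations took no account of cage, so that these p-values may be too small where hearts of a cage are alike. Without the 2 hearts farthest from the median of Acta1, r was 0.584. Within the larger and the smaller set of arrays r was 0.66 and 0.584, and within the groups it was 0.291 in HF_HF, 0.672 in HF_LF, 0.746 in LF_HF and 0.803 in LF_LF. In a limma fit of the slope on Acta1 with the group means, a test added after the pattern was seen, 0.0554% of 12644 probes were called, all of them higher, and Nppb was the 1 member of 9 called (slope 0.499 log2 units of Nppb per log2 unit of Acta1, limma adjusted p = 0.0243). With Myl7 as a further term the slope was 0.489 (limma adjusted p = 0.0224).

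The tested probes of other genes most like each of these peptides and actins were listed by the same r, as a description. For Acta1 they were Rcan1 (0.77), Mybpc2 (0.713), Ankrd23 (0.702), Dct (0.682) and then Nppb. For Nppb they were both probes of Ankrd1 (0.783 and 0.722), Ccdc68 (0.708), Emcn (0.69) and Emp1 (0.684). Mybpc2 is a myosin-binding protein of fast skeletal muscle and Ankrd1 a stretch-responsive protein of the sarcomere. For Myh7 the list was Stam2 (0.845), Gatad1 (0.835), Setd3 (0.823), Osbpl11 (0.815) and 1700071K01Rik (0.809).

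Nppa, which encodes the atrial natriuretic peptide, varied with Myl7 from heart to heart, and no diet comparison called it. Its intensity ran from 2123 over a median of 20810 to 30029 in HF_HF hearts, against 3342, 29023 and 30029 in HF_LF hearts. In LF_HF hearts it ran from 3961 over 9054 to 25338, against 2968, 5363 and 30531 in LF_LF hearts. The highest hearts of each group, at 25338 or more, lay close to the highest value in the table, where a difference between hearts could hardly be read. The log2 change was -0.40 in HF_HF over HF_LF (95% interval -1.39 to 0.59) and 0.10 in LF_HF over LF_LF (95% interval -0.92 to 1.12), and the intervals were the widest of all members.

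Myl7 ran from 138 over a median of 5253 to 15333 in HF_HF hearts and from 110.4 over 10270 to 16072 in HF_LF hearts. It ran from 78.1 over 2460 to 4938 in LF_HF hearts and from 86 over 379 to 18459 in LF_LF hearts. The largest gap in Myl7 lay between 513 and 1230, with 13 hearts below it (2 of HF_HF, 2 of HF_LF, 3 of LF_HF and 6 of LF_LF) and 27 above. In the hearts above the gap Nppa lay between 14885 and 30029 in HF_HF, against 2123 to 5331 in those below. It lay between 26864 and 30029 above the gap and between 3342 and 5679 below it in HF_LF, and between 22617 and 30531 above and 2968 and 6165 below in LF_LF. In LF_HF the hearts above the gap ran from 4405 to 25338 and overlapped with those below it, which ran from 3961 to 6114.

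Over the deviations from group means, Nppa correlated with Myl7 with Pearson's r = 0.935 and Spearman's rho = 0.89 over 40 hearts (permutation p = 1e-05 for each, the smallest possible, and 0.00011 after adjustment over the 11 member probes). Without the 2 hearts of most extreme Myl7, r was 0.946, and it was 0.67 in the 13 hearts below the gap and 0.575 in the 27 above. The slope was 0.43 log2 units of Nppa per log2 unit of Myl7 (SE 0.026, limma adjusted p = 6.703e-16), and within the 2 sets of arrays it was 0.44 and 0.36. Of all probes 11.3% were called on this slope, 6.07% higher and 5.24% lower, and Nppa was the only member called of 10. The transcripts most like Nppa were Mybphl (0.95), both probes of Dkk3 (0.944 and 0.94), Sln (0.94) and Myl7 itself, and each of these was on the list of atrial markers. Of the 13 atrial probes other than Myl7, 10 were called higher on the slope, whereas 4 of 8 ventricular and 5 of 14 cardiomyocyte probes were called lower. The slope was not particular to atrial markers. Also called higher were 11 of 11 fibroblast, 3 of 3 adipocyte, 3 of 11 endothelial and 2 of 11 smooth muscle probes, against 0 of 8 liver probes.

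The log2 change of Nppa with the diet of the dam was 0.66 in HF_HF over LF_HF (SE 0.44, 8 of 10 hearts higher) and 1.16 in HF_LF over LF_LF (SE 0.53, 9 of 10 hearts higher). Neither passed (limma adjusted p = 0.5857 and 0.9959), and averaged over the diets of the offspring the change was 0.91 (SE 0.36, limma adjusted p = 0.3491). The averaged change was 0.25 (SE 0.47, limma adjusted p = 0.9586) in the larger set of arrays and 1.91 (SE 0.43, limma adjusted p = 0.5329) in the smaller one. With Myl7 as a covariate the changes over all arrays were 0.02 in HF_HF over LF_HF, 0.27 in HF_LF over LF_LF and 0.15 averaged. The summed intensity of the 12 atrial markers moved the same way, with medians of 27433 in HF_HF against 12871 in LF_HF, and 47726 in HF_LF against 3941 in LF_LF, while 0 of the 14 tested atrial probes were called for the averaged diet of the dam.

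None of the other members was called on the slope on Myl7. Nppb had r = 0.227 over all hearts (rho 0.283, permutation p = 0.158 and 0.0767, adjusted 0.434 and 0.211), 0.327 without the 2 hearts of most extreme Myl7, 0.497 among the 13 hearts below the gap and 0.589 among the 27 above it. Tnnt1 had r = -0.378 with Myl7 (rho -0.37, permutation p = 0.0165 and 0.019, adjusted 0.081 and 0.104) and -0.444 without those 2 hearts. Its slope was -0.028 per log2 unit of Myl7 (limma adjusted p = 0.1073), and it passed without animal 183 of HF_HF or animal 201 of LF_HF (limma adjusted p = 0.0371 and 0.0311). Both hearts had low Myl7 and low Tnnt1 for their group, so that leaving out either steepens the slope. With any other single animal left out the slope did not pass. With Myl7 as a covariate the averaged post-weaning changes were -0.49 for Tnnt1, 0.87 for Acta1 and 0.61 for Nppb, and all 3 passed.

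**Figure D4:**
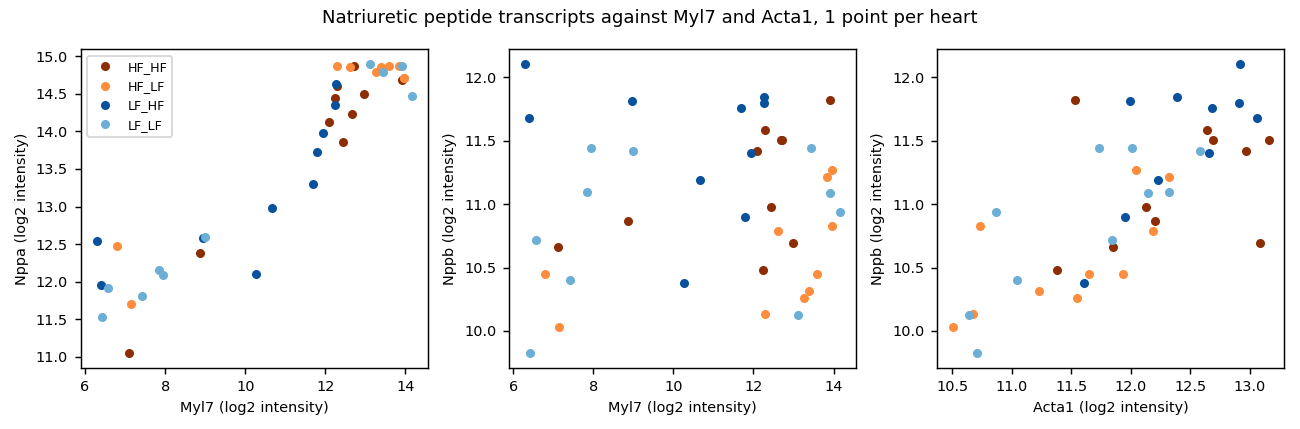
Log2 intensity of Nppa and Nppb against Myl7 (left and middle) and of Nppb against Acta1 (right), 1 point per heart coloured by group (HF_HF, HF_LF, LF_HF, LF_LF). Nppa follows Myl7 (r = 0.935) up to a ceiling near the top of the scale, and Nppb rises with Acta1 (r = 0.629). Nppb has r = 0.227 with Myl7 over all hearts, 0.497 in the 13 hearts below the Myl7 gap and 0.589 in the 27 above it.

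No probe of the adult cardiac isoforms was called for either diet. Actc1 encodes the alpha-actin of the adult heart, and its brighter probe lay between 23945 and 31454 on all 40 arrays, near the top of the scale. The second probe of Actc1 ran from 7061 over a median of 11797 to 17626 in HF_HF hearts, against 8225, 11282 and 15906 in HF_LF hearts. In LF_HF hearts it ran from 9962 over 13425 to 16935, against 8225, 10700 and 14434 in LF_LF hearts. Its log2 change was 0.32 in LF_HF over LF_LF (SE 0.10, 9 of 10 hearts higher, limma adjusted p = 0.07563), and 0.11 in HF_HF over HF_LF (SE 0.14, limma adjusted p = 0.9511). The first of these passed without animal 15 or 211 of LF_LF or animal 99 of LF_HF (limma adjusted p = 0.048, 0.0325 and 0.0382). Animal 211 had the highest value of LF_LF, animal 15 stood at 13274, and animal 99 had the lowest of LF_HF. Leaving out any of them thus widens the difference, and with any other single animal left out it did not pass. The averaged change, 0.22 (limma adjusted p = 0.1281), passed only without animal 124, the lowest of HF_HF (0.26, limma adjusted p = 0.0406). The brighter probe had changes of -0.02 in both comparisons, and the 2 probes of Actc1 correlated with r = 0.14, so that they did not give the same picture.

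Myh6 and Myh7 encode the fast alpha and the slow beta myosin heavy chain, and the adult mouse ventricle uses the alpha form. The brighter probe of Myh6 lay between 18714 and 26402, toward the top of the scale. Its log2 changes were -0.04 in HF_HF over HF_LF, -0.09 in LF_HF over LF_LF, 0.11 in HF_HF over LF_HF and 0.06 in HF_LF over LF_LF, with a smallest limma adjusted p of 0.2731. The second probe of Myh6 lay between 3144 and 6963, and its changes in the same order were -0.13, 0.04, -0.01 and 0.15. The 2 probes of Myh6 correlated with r = 0.117 over deviations from group means. Myh7 was dim, from 127.4 to 217.9 over all hearts. Its median was 184.2 in HF_HF against 187.7 in HF_LF hearts, and 174.7 in LF_HF against 185.7 in LF_LF hearts. Its log2 changes lay between -0.02 and 0.04 in the 4 pairwise comparisons, and the widest 95% interval ran from -0.21 to 0.17 for the post-weaning diet and from -0.17 to 0.26 for the diet of the dam.

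Tnni3 encodes the cardiac troponin I of the adult heart. Its intensity ran from 2531 over a median of 3580 to 4079 in HF_HF hearts, against 2911, 3462 and 3854 in HF_LF hearts. In LF_HF hearts it ran from 2991 over 3691 to 4297, against 2348, 3422 and 3974 in LF_LF hearts. The log2 changes were -0.02 (95% interval -0.21 to 0.16) in HF_HF over HF_LF and 0.16 (95% interval -0.02 to 0.33) in LF_HF over LF_LF. Tnnt1, its neighbour on chromosome 7, fell in both. The fetal counterpart Tnni1 had medians of 69.5 in HF_HF against 72.9 in HF_LF hearts, and 68.1 in LF_HF against 70.7 in LF_LF hearts, and all its values lay near the array median.

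**Figure D5:**
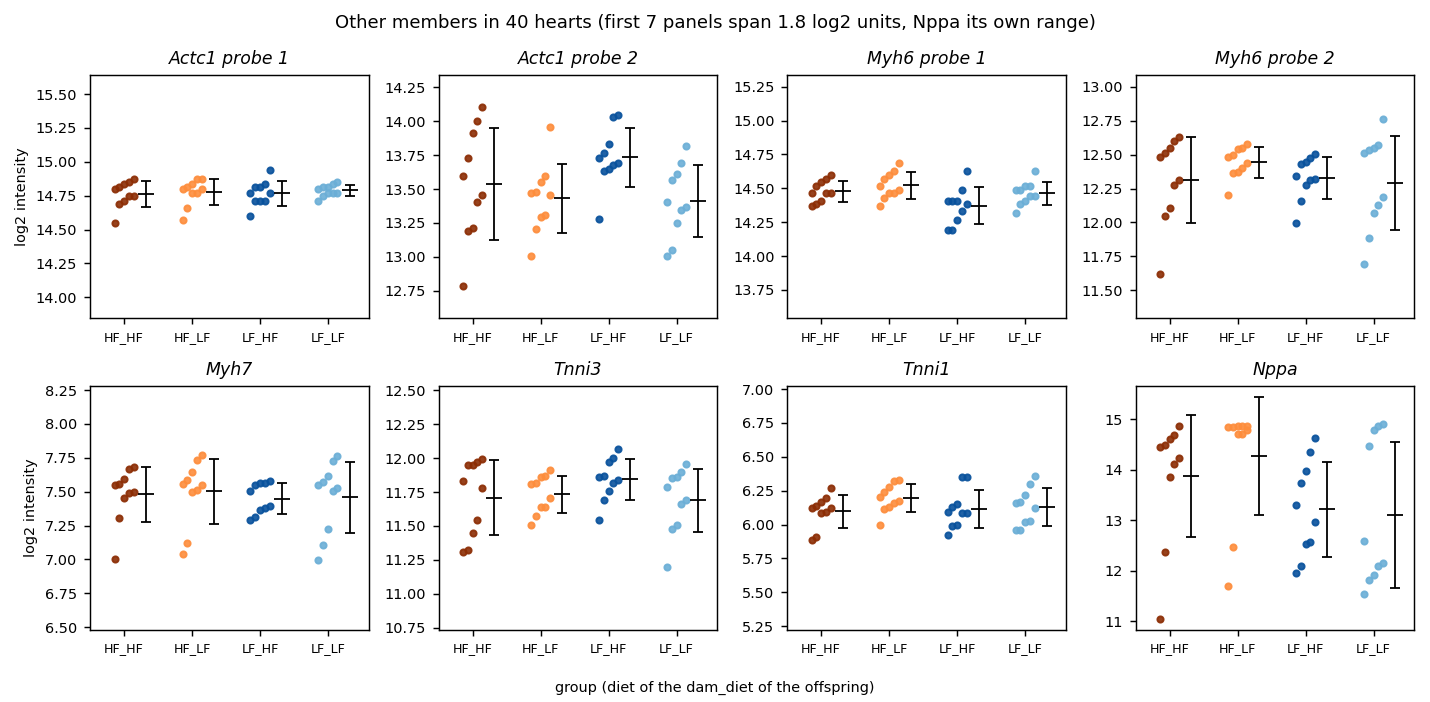
Log2 intensity (vertical axis) of the remaining member probes in the 10 hearts of HF_HF, HF_LF, LF_HF and LF_LF (horizontal axis), 1 point per heart, with mean and SD in black. The groups overlap in every panel, and Nppa spreads far more within a group than any other probe.

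The second probes of Actc1 and Myh6, Myh7 and Tnni3 varied together between hearts. The share of all probes that vary as closely with these 4 was not counted. Myh7 was closer to genes outside the list (Stam2 0.845, Gatad1 0.835, Setd3 0.823) than to any member. The pattern was thus not shown to be particular to the members. The 6 correlations among these 4 probes ran from 0.627 to 0.741 (Pearson, n = 40) with Spearman's rho from 0.474 to 0.72, permutation p from 1e-05 to 4e-05 for Pearson's r and at most 0.0025 for rho, and p adjusted over the 45 pairs of at most 0.000257 and 0.0155. Without the 2 hearts farthest from the median of the first probe of a pair, r ran from 0.455 to 0.677. Within the smaller set of arrays r ran from 0.761 to 0.931. Within the larger one it ran from 0.0919 (second probe of Myh6 with Tnni3) to 0.666, so that this lowest relation was not seen in the larger set. Tnnt1 ran against 2 of these probes, with r = -0.415 for Actc1 (rho -0.405, permutation p = 0.0076 and 0.0103, adjusted over the 45 pairs 0.038 and 0.0513) and -0.433 for Myh6 (rho -0.467, permutation p = 0.00556 and 0.00275, adjusted 0.0313 and 0.0155). Without the 2 farthest hearts these were -0.363 and -0.403, within the larger set of arrays -0.277 and -0.257, and within the smaller one -0.727 and -0.68. The brighter probes of Actc1 and Myh6 had r = 0.31 and 0.184 with Tnnt1. With Tnni3 they had 0.347 and -0.171, and with Myh7 0.114 and 0.0801. None of these passed the permutation test after adjustment, so that the pattern was seen with the second probes only. In HF_HF animal 124 had the lowest values of the second probes of Actc1 and Myh6, of Myh7 and of Tnni3, with 3144 for Myh6, and animal 122 had the highest. In LF_LF animal 101 had the lowest values of the same 4 probes. The summed smooth muscle markers stood at 15394 in animal 124 and 16458 in animal 101, against medians of 12061 in HF_HF and 10881 in LF_LF hearts. The highest sum of all was that of animal 133 of LF_LF (17007), whose second probe of Myh6 stood at 6083, above the median of its group (5254). Animal 101 also carried the liver transcripts named above. The part of these tissues in the low values was not tested.

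No relation of a member to body weight or fasting glucose passed the test. Of 30 relations of the 10 tested probes with weight at 3 weeks, later weight and fasting glucose, all over deviations from group means, 0 passed by a permutation test. By Pearson's r the smallest unadjusted p was 0.116, for Tnni3 with later weight (r = -0.252, rho = -0.286, permutation p = 0.0737 for rho, adjusted p = 0.888 and 0.704). Without the 2 farthest hearts that r was -0.324, and within the larger and the smaller set of arrays it was -0.294 and -0.0612. By Spearman's rho the smallest was 0.0637, for the second probe of Myh6 with later weight (rho = -0.297, r = -0.23, permutation p = 0.154 for r, adjusted p = 0.704 and 0.888), where r was -0.183 without the 2 farthest hearts and -0.358 and 0.0464 within the sets.

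The comparisons of maternal diet called no member. In HF_HF over LF_HF, 0% of probes were called (limma, with 1429 probes at an unadjusted p under 0.05), and in HF_LF over LF_LF 0.0395% were called. Averaged over the diets of the offspring 0.388% of probes were called, again with 0 of 10 member probes. The test of whether the effects of both diets depended on each other called 0% of probes (limma, with 431 at an unadjusted p under 0.05) and 0 of 10 members. The largest difference among the members was that of Nppa, -0.50 with a 95% interval from -1.96 to 0.96.

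Genes around the members were read from 4 lists. Over all probes 7.49% were called with the averaged post-weaning diet, 0.388% with the averaged diet of the dam and 11.3% on the slope on Myl7. The list of natriuretic peptide receptors, processing enzymes and signalling proteins had 10 tested probes of 9 genes, and with the post-weaning diet averaged over dams 0 of them were called, with a median change of 0.02 against 0.00 over all probes. The smallest p-values were those of Npr2, the receptor of the C-type peptide (0.12, SE 0.041, limma adjusted p = 0.0617), and Corin (-0.10, SE 0.047, limma adjusted p = 0.159). With the diet of the dam 1 was called: Corin, the protease that cuts the Nppa precursor into the active hormone, was higher by 0.21 (SE 0.047, limma adjusted p = 0.0231), with 0.20 in HF_HF over LF_HF and 0.22 in HF_LF over LF_LF. Npr3, the clearance receptor, was the 1 probe of this list called on the slope on Myl7 (0.11, limma adjusted p = 1.44e-08).

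The list of other transcripts that respond to hypertrophy had 20 tested probes of 12 genes. With the post-weaning diet averaged over dams 3 were called higher and 1 lower, with a median of 0.05. Of all probes 3.53% were called higher and 3.96% lower. Both probes of Rcan1, a calcineurin inhibitor that calcineurin itself induces, were higher (0.69 and 0.29, limma adjusted p = 3.83e-05 and 0.000834), and so was Ankrd1 (0.31, limma adjusted p = 0.0376). Slc2a1, the glucose transporter of the fetal heart, was lower (-0.34, SE 0.051, limma adjusted p = 1.27e-05). In LF_HF over LF_LF both probes of Rcan1 were higher (0.84 and 0.34, limma adjusted p = 0.00919 and 0.037) and Slc2a1 was lower (-0.34, limma adjusted p = 0.0116). In HF_HF over HF_LF Slc2a1 was lower by a like amount (-0.35, limma adjusted p = 0.0197), and Rcan1 had changes of 0.53 and 0.25 that did not pass (limma adjusted p = 0.0601 and 0.155). With the diet of the dam 1 probe of Rcan1 was called, lower (-0.27, limma adjusted p = 0.0141), and the other had -0.44 (limma adjusted p = 0.0539). On the slope on Myl7 1 probe was called, Ccn2, a secreted matrix protein (0.15, limma adjusted p = 4.04e-06).

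Of 21 tested probes of other sarcomere genes, 2 were called higher and 1 lower with the averaged post-weaning diet, with a median of -0.01. Of all probes 3.53% were called higher and 3.96% lower. Both probes of Cfl2, the muscle cofilin that trims actin filaments, were higher (0.12 and 0.35, limma adjusted p = 0.0161 and 0.0473), and 1 probe of Mylk3, the cardiac myosin light chain kinase, was lower (-0.19, limma adjusted p = 0.00482). On the slope on Myl7, 5 were called higher and 4 lower, against 6.07% and 5.24% of all probes. Those of smallest p were Myl4, the atrial essential light chain (0.97 per log2 unit), Mybphl (0.83), Tpm2 (0.13) and Mybpc3 (-0.04). Of 34 probes of transcriptional regulators of these genes, 1 was called higher and 1 lower with the averaged post-weaning diet, with a median of -0.02. Over all probes 7.49% were called, and so small a count does not set this list apart from that share. Srf, the factor that binds the CArG box, was higher by 0.17 (SE 0.038, limma adjusted p = 0.0042), and 1 probe of Myocd, its heart and smooth muscle coactivator, was lower (-0.15, limma adjusted p = 0.0167). In the pairwise comparisons and for the diet of the dam 0 of the 34 were called by limma. Srf had 0.24 in HF_HF over HF_LF (limma adjusted p = 0.0597) and a smaller change in LF_HF over LF_LF.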

How the data were processed

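Total RNA of 40 hearts was measured on Illumina MouseRef-8 v2.0 beadchips, 1 array per animal. The authors measured fluorescence intensity in BeadStudio, whose version is not given in the sources used here. They quantile-normalised it over the 40 heart arrays, and the deposited table holds these linear intensity values for 25697 probes. No detection p-value was used, so how far a dim probe stood above background is unknown, and the number of arrays limits the precision. Intensities were converted to log2. Symbols came from the probe annotation through Entrez identifiers, with 1719 probes unnamed. The part of the transcript that each probe covers was not used here.

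The package limma 3.58.1 (R 4.3.3), with a trend of the variance on intensity, compared each pair of groups on its own 20 arrays and the averaged effects, the interaction and the slopes on all 40. Probes below the array median on more than 20 of the 40 arrays were left out, p-values were adjusted over all these probes by the Benjamini-Hochberg method, and the false discovery rate was 5%. Fold changes are HF over LF. Correlations were tested with 1e+05 permutations, two-sided. All 40 hearts were exchanged freely after group means were removed, without regard to cage. Hearts of different animals were the replicates, and littermates shared a dam. Alternatives were other filters, normexp background correction, cyclic loess, no variance trend, array weights, cage as a block, the array sets, Myl7 as a covariate, and hearts left out. The fit was tested on simulated data. Plots were drawn with matplotlib 3.10.9 in Python 3.11.15.

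The members and lists were chosen with earlier results of these data known. Named were all member probes and, of each list, up to 4 genes of smallest p among those called, or the 2 of smallest p where none was called. For Acta1, Nppb, Nppa and Myh7 the 5 most similar probes were named. Values for single animals were chosen after they were seen.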

Additional observations from a re-analysis of the deposited data

How the results depend on the processing

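The count of called members kept its value under most alternatives. In LF_HF over LF_LF, where 1 member was called, 2 were called under the stricter filter and 2 with Myl7 as a covariate, the second being Acta1 in each case (limma adjusted p = 0.0467 and 0.0423). In both pairwise comparisons of post-weaning diet 0 were called in either set of arrays alone and 0 in the mixed cages with cage as a fixed block, where fewer arrays entered. For the averaged post-weaning diet 1 member, Tnnt1, was called in the smaller set of arrays alone, against 3 over all arrays. For the slope on Myl7, 2 were called with array weights. Leaving out each animal in turn gave 1 to 3 called members in LF_HF over LF_LF and 1 to 2 for the slope on Myl7. Of the log2 changes and slopes of single member probes, 8 lost a call and 3 gained one under other settings, 9 gained one with an animal left out, and no called one changed sign. Over all probes, 344 were called in LF_HF over LF_LF, against 146 with no filter, 878 with Myl7 as a covariate, 63 and 0 in the larger and the smaller set of arrays and 6 in the mixed cages. Leaving out single animals gave from 146 (without animal 207 of LF_HF) to 663 (without animal 211 of LF_LF) in that comparison. In HF_HF over HF_LF 109 were called, against 183 with array weights, 22 and 1 in the sets and 16 in the mixed cages. For the averaged post-weaning diet 947 were called, against 624 with no filter and 4 in the smaller set. For the averaged diet of the dam 49 were called, against 115 with array weights, 28 without the heart of highest Myl7 in each group, and 25 and 0 in the sets. In HF_LF over LF_LF 5 were called, against 22 with Myl7 as a covariate, 10 with array weights, 2 with no filter, 3 from the fit on all 40 arrays, and 0 in the smaller set or without the hearts of highest Myl7. With 1 animal left out it was 0 to 6, and 0 without animal 100, 102 or 211 of LF_LF or animal 228 of HF_LF. In HF_HF over LF_HF 0 were called, against 9 with array weights, 4 with the array set as a term and 2 under the stricter filter, and up to 15 with 1 animal left out (15 without animal 122 and 9 without animal 181 of HF_HF, 2 without animal 199 of LF_HF, 1 each without animal 172 of HF_HF or animal 24 of LF_HF). For the slope on Myl7 1430 were called, against 2157 with array weights, and 858 and 12 in the sets. The cause of these shifts was not tested. Cage mates on different diets were compared in the mixed cages only. No pairing of single animals was made, since the animal numbers tie no animal of one group to one of another.  Nppa and the brighter probes of Actc1 and Myh6 lay near the top of the intensity scale and Tnni1 near the array median, where changes are hard to measure.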
